A study of Mus musculus with 9 samples.

Results

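The genes described here are 36 genes of G2 phase and mitosis, taken from the deposited table by gene name out of 54838 genes. All 36 were found and all 36 passed the filter of a mean normalized count of at least 5, which left 19656 genes. A normalized count is a raw read count divided by 1 size factor per library. No member was below 599 normalized counts in any library. RNA was sequenced from CD133-positive cells of mouse kidneys at embryonic day E18.5, which the labels call proximal tubule cells of strain CD1. CD133 is prominin-1, a membrane protein used here as the sort antigen. The control group carried Tsc1 fl/fl without Cre, is also titled wild type, and received DMSO, the vehicle. The mutants carried Six2 Cre and Tsc1 fl/fl, and 1 mutant group received DMSO. In the other mutant group the dams received rapamycin in intraperitoneal injections of 0.2 mg/kg, given every second day between E12.5 and E16.5. Each of the 3 groups had 3 libraries. Controls treated with rapamycin were not analysed here, and all 9 libraries shared floxed Tsc1 alleles and the CD133 sort. Six2 Cre is active in nephron progenitors, so cells of other origin in the sort would keep Tsc1. The labels do not say whether a replicate was 1 embryo, a litter or a pool, so a p-value here reflects library-to-library spread alone, part of which may be technical.

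Tsc1 forms a complex with Tsc2 that restrains mTORC1, the kinase complex that promotes cell growth and that rapamycin inhibits. The 36 genes peak late in the cell cycle. In most cell types their promoters are held silent in resting cells by the DREAM complex and switched on in late S phase and G2 by B-Myb with MuvB and by Foxm1, largely through a short element called the CHR, the cell cycle genes homology region, often near CCAAT boxes bound by NF-Y. Their products drive mitotic entry (Cdk1 with A-type and B-type cyclins), attach chromosomes to the spindle, hold anaphase until attachment is complete, and divide the cell. In the embryonic kidney such transcripts mark cycling progenitors and young tubule cells.

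Promoter windows show sequence elements that many of these genes share. Of the 36 genes, 30 matched a RefSeq promoter window of the GRCm38.p6 assembly, covering 250 bases before to 50 bases after the annotated start; Ccna2, Foxm1, Aurkb, Incenp, Tpx2 and Kif20a had none. A CHR form was searched as TTTGAA and, in its second form, as TTCGAA on either strand. It was found in 24 of the 30 genes, or 80.0%, against 21.7% of all 27025 genes with a RefSeq window of the same length. A gene counts when any of its windows matches, and Prc1 and Ect2 have 2 each. A CCAAT box on either strand was found in 24 of 30 as well, against 41.1% of all these genes, and both together in 22 of 30, or 73.3%, against 9.65%. A CHR form began within 50 bases of the start on either side in 23 members and in 6.12% of all these genes. An E2F form was searched as TTTCGCGC and also as TTTGGCGC on either strand. It was found in 1 of 30 members, or 3.33%, and in 0.929% of all these genes. The windows without a CHR form were those of Ccnb1, Birc5, Cenpe, Nuf2, Mad2l1 and Nusap1. Those without a CCAAT box were those of Birc5, Ndc80, Nuf2, Mad2l1, Nusap1 and Anln. A match describes the letters of the window and not binding.

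The 4 members with the highest mean count among those with a matching window are printed 5′ to 3′ in the direction of transcription, to show how the elements sit. Capitals mark CHR forms and CCAAT boxes on either strand, so that a reverse CCAAT box reads ATTGG. They are Mki67 at chr7:135716330-135716629, Top2a at chr11:99024140-99024439, Racgap1 at chr15:99651607-99651906 and Cenpf at chr1:189688037-189688336, all on the minus strand of GRCm38.p6.
Mki67: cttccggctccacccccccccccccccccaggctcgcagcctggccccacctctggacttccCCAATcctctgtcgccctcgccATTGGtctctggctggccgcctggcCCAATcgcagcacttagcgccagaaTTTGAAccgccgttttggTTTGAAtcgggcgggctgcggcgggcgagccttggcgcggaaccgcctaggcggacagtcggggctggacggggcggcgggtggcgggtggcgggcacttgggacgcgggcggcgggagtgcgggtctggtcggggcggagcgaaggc
Top2a: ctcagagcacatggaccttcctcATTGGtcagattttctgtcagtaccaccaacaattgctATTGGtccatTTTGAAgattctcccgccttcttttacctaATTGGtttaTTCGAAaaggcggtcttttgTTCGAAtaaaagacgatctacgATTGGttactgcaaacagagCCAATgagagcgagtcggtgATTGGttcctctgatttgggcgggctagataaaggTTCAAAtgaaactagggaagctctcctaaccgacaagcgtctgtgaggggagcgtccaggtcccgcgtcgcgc
Racgap1: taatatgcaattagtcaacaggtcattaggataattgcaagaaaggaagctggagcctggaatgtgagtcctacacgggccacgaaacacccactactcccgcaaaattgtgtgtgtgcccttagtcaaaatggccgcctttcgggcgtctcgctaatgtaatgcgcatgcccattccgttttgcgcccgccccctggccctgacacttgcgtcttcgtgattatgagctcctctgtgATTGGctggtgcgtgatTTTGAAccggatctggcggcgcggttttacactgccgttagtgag
Cenpf: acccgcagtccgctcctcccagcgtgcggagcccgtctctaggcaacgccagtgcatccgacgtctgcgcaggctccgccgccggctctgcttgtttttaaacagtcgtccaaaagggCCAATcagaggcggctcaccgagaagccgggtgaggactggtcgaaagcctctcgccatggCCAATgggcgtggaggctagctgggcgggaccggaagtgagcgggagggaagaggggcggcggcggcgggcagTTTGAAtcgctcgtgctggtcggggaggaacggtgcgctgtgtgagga
In Cenpf a CHR form spans bases 3 to 8 after the start, with CCAAT boxes beginning at bases -132 and -71. Racgap1 also has a CHR form just after the start, at bases 6 to 11, with a single reverse CCAAT box beginning at base -12. In Mki67 the CHR forms lie further upstream, beginning at bases -116 and -98. Top2a holds 4 CHR forms and 6 CCAAT boxes. Of the other G2 and mitosis genes described below, 39 of 62 with a window had a CHR form, or 62.9%, and of DNA replication and S phase genes 6 of 35, or 17.1%. E2F forms were found for 4 of 62 genes of the former list, or 6.45%, and 11 of 35 of the latter, or 31.4%. For vehicle mutants against controls the median log2 fold changes, described below, were -0.48 over 24 members with a CHR form and -0.45 over 6 without.

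The libraries held between 23372093 and 32669791 counts. Tsc1 itself was at 1439.5 to 2041 normalized counts in the controls, 1569.9 to 1747 in the vehicle mutants and 1526 to 1686 in the rapamycin mutants, and the groups overlapped. A count over the whole gene includes exons outside the deleted part, so it does not check the genotype labels. Prom1, which encodes the sort antigen, was at 2453 to 3362 in all 9 libraries. No listed proximal tubule marker was at 0 in any library, and neither was any listed marker of nephron progenitors, ureteric bud, stroma, endothelium or leukocytes. The 11 stromal markers took 0.511% to 0.912% of the normalized counts of a library and the 12 proximal tubule markers 0.0759% to 0.156%. The lists hold different genes, so these sums do not give shares of cells, and the label proximal tubule was not tested. Genes that encode or overlap ribosomal RNA took 8.14% of the counts in control 1 and 4.81% in rapamycin mutant 2, against 0.541% to 1.62% in the other libraries.

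Per kilobase of exon, the members spanned a range from 111 normalized counts in Ndc80 to 1420.0 in Mki67, with a median of 385. Mki67, the proliferation antigen that coats mitotic chromosomes, led this scale, followed by Ccnb2 (1328), Cdc20 (1193) and Top2a (1168). The lowest were Ttk (163), Hmmr (169), Cenpf (180) and Nuf2 (182), above Ndc80. Together the 36 genes took 0.391% to 0.411% of the normalized counts in the controls, 0.291% to 0.334% in the vehicle mutants and 0.274% to 0.326% in the rapamycin mutants. The summed share was thus lower in all 6 mutant libraries than in any control, whether or not rapamycin had been given. In these bulk samples, fewer dividing cells and less of each transcript per cell cannot be told apart.

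**Figure D1:**
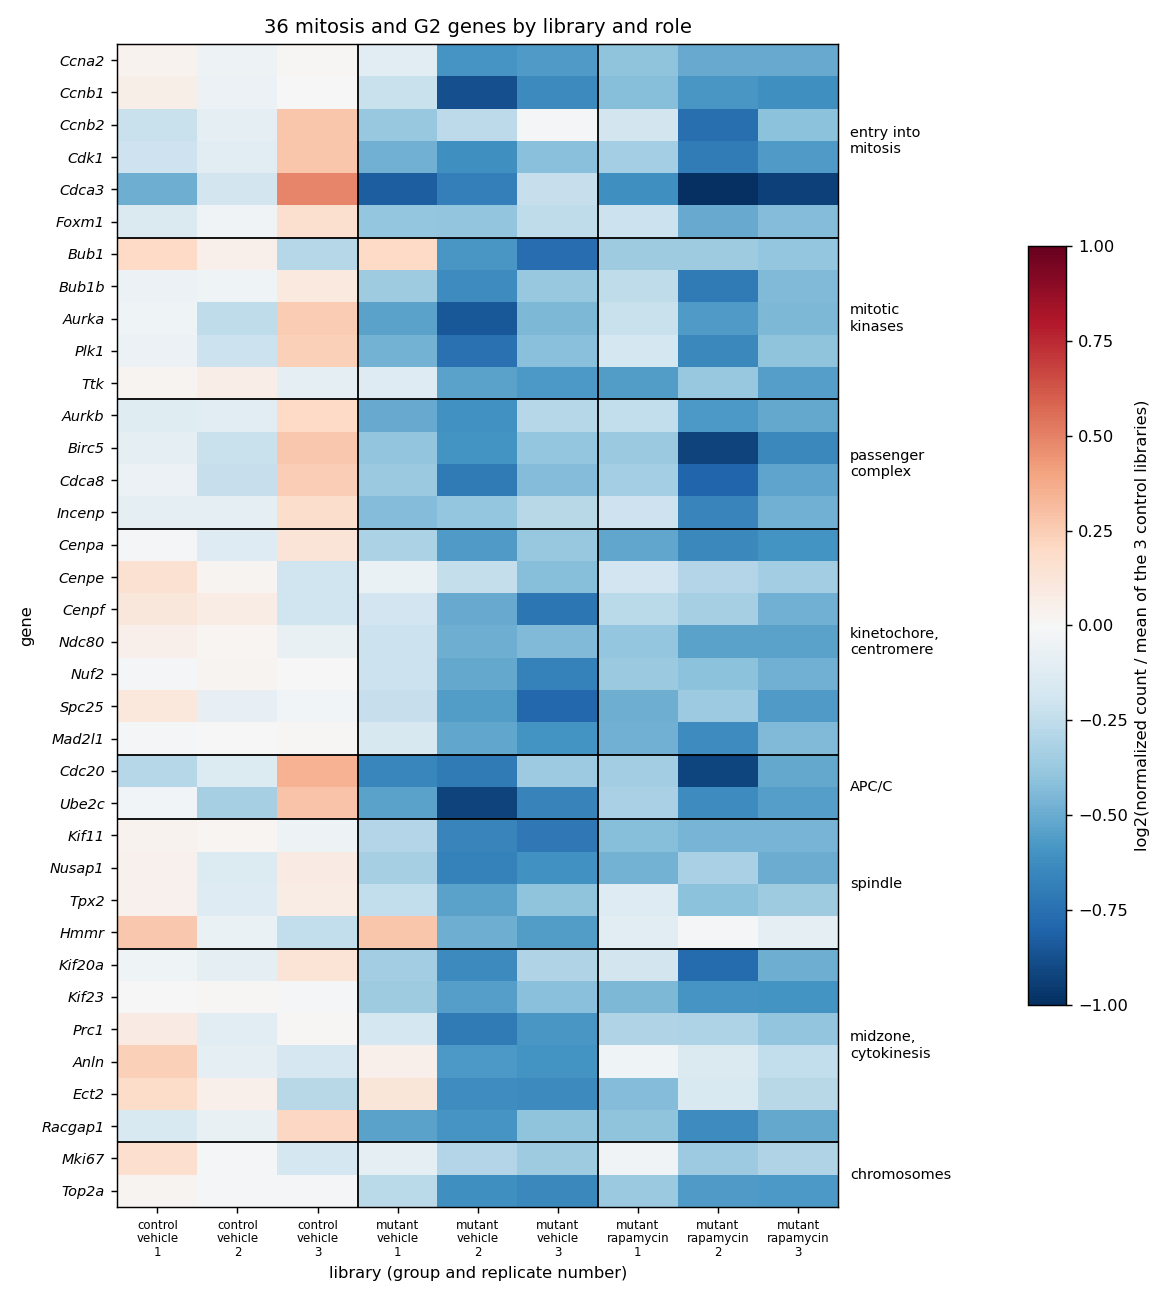
Each row is 1 of the 36 genes, grouped by role, and each column 1 library. Colour gives the log2 of the normalized count over the mean of the 3 controls, and the columns of both mutant groups are blue in nearly every row, with mutant vehicle 1 red in Hmmr, Bub1, Ect2 and Anln.

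The first comparison, vehicle mutants against controls, addressed how these genes differed between floxed Tsc1 with Six2 Cre and floxed Tsc1 without Cre. No control carried Cre, so loss of Tsc1 and the presence of Cre cannot be told apart. Every one of the 36 had a lower mean in the mutants, at 61.5% to 86.8% of the control mean with a median of 73.2%. The median log2 fold change was -0.45, against -0.0055 over all 19656 genes tested, and 50.8% of all genes lay below 0. In 27 of the 36 all 3 mutant libraries lay below all 3 controls, where 6.14% of all genes did.

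No member passed the test by itself, at an adjusted p under 0.05 over all genes from limma on log2(normalized count + 1), which called 0.366% of all genes lower. At an unadjusted p under 0.05, 28 of the 36 were lower, against 4.24% of all genes. limma-voom, a weighted fit on the raw counts, gave 0 calls as well and 28 at an unadjusted p under 0.05. Same-numbered libraries of these groups deviated together, by a check given with the processing, although the labels do not say that they are pairs. A fit with the number as a block in all 9 libraries called 5 members lower (Ube2c, Kif11, Top2a, Aurka and Ccnb1), where it called 0.677% of all genes. The blocks added after seeing the data called more. With the block in the control and vehicle mutant libraries it was 19 members against 1.56% of all genes, and in a fit of those 6 libraries alone 30 against 3.04%. Leaving out mutant 1 gave 9 calls against 0.396% of all genes, and leaving out any other library gave 0. Within replicate number 1, 35 of 36 members were lower in the mutant, with a median log2 difference of -0.30. Within numbers 2 and 3 all 36 were lower, with medians of -0.53 and -0.55. The authors' deposited table, made with DESeq2, has 8 members lower at an adjusted p under 0.05, against 0.791% of its genes, led by Kif23 at 0.00326 and Kif11 at 0.00618.

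Among the 6 genes of entry into mitosis, the median log2 fold change of vehicle mutants against controls was -0.46. Cdk1, the kinase that drives cells into mitosis, stood at 2916, 3106 and 4079.6 in the controls, 2416, 2197 and 2514 in the vehicle mutants and 2659, 2077 and 2272 in the rapamycin mutants, always in the order of replicates 1 to 3. Ccnb1, its B-type cyclin partner, stood at 2124, 1951 and 2035 in the controls, 1742, 1110.2 and 1308 in the vehicle mutants and 1518, 1362 and 1331 in the rapamycin mutants. All mutant libraries with either treatment were below all controls for both genes, and mutant vehicle 2 was lowest for Ccnb1. The log2 fold change of vehicle mutants was -0.49 ± 0.15 (SE) for Cdk1, with an adjusted p of 0.179, and -0.58 ± 0.15 for Ccnb1, with 0.120. Foxm1, the forkhead factor that activates this gene programme, was at 2919, 3156 and 3613 in the controls, 2472, 2458 and 2709 in the vehicle mutants and 2779, 2273 and 2394 in the rapamycin mutants. Its groups did not overlap with the controls either, at -0.34 ± 0.12 and an adjusted p of 0.304. Ccnb2, the other B-type cyclin, was at 2005, 2183 and 2836 in the controls, 1798, 1949.9 and 2324 in the vehicle mutants and 2062, 1385 and 1759.7 in the rapamycin mutants. Here control 1 lay within the range of both mutant groups, and the difference was the smallest of the 36, at -0.20 ± 0.18. Ccna2, the A-type cyclin of S phase and G2, had -0.42 ± 0.13. Cdca3, first described in frog egg extracts as a trigger of mitotic entry, had -0.52 ± 0.25 and the widest spread among controls relative to its mean, from 1334 to 2630.0.

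The 5 mitotic kinases had a median of -0.45. Plk1, which acts at centrosomes and kinetochores, was at 1766, 1582 and 2162 in the controls, 1323, 1093 and 1378 in the vehicle mutants and 1629, 1177 and 1391 in the rapamycin mutants. Bub1b, a kinetochore protein of the spindle checkpoint, was at 3217, 3242 and 3575 in the controls, 2616, 2168 and 2572 in the vehicle mutants and 2808, 2044 and 2459 in the rapamycin mutants. For both genes the vehicle mutants were all below the controls. Rapamycin mutant 1 lay above control 2 for Plk1. The fold changes of the vehicle mutants were -0.53 ± 0.16 for Plk1 and -0.45 ± 0.14 for Bub1b, with adjusted p of 0.185 and 0.180. Aurka, the kinase of centrosome maturation, had -0.59 ± 0.17, and Ttk, the checkpoint kinase also called Mps1, -0.41 ± 0.14. Bub1, the kinase that marks centromeres for the checkpoint, had -0.37 ± 0.22 with overlap, since mutant 1 at 1932 lay near control 1 at 1935.

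The chromosomal passenger complex corrects faulty attachments and later acts in cytokinesis, and its 4 genes had a median of -0.45. Aurkb, its kinase, was at 1691, 1702 and 2110.1 in the controls, 1295, 1207 and 1506 in the vehicle mutants and 1548, 1233 and 1286 in the rapamycin mutants. Birc5, the subunit survivin, was at 1809, 1645 and 2311 in the controls, 1459, 1273 and 1470.5 in the vehicle mutants and 1482, 1010.1 and 1233 in the rapamycin mutants. Neither mutant group overlapped the controls in either gene, and control 3 was the highest library in both. The vehicle mutants had -0.46 ± 0.14 for Aurkb and -0.44 ± 0.17 for Birc5, with adjusted p of 0.203 and 0.340. The scaffold Incenp had -0.36 ± 0.13 and Cdca8, the subunit borealin, -0.49 ± 0.16. No member of the complex overlapped between vehicle mutants and controls.

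For the 7 genes of kinetochore and centromere the median was -0.42. Ndc80, a subunit of the complex that grips microtubules, was at 899, 884 and 828 in the controls, 751, 621 and 642 in the vehicle mutants and 667, 599 and 600.0 in the rapamycin mutants. Cenpa, the histone variant that marks centromeres, was at 2814, 2589 and 3088 in the controls, 2271, 1910.3 and 2171 in the vehicle mutants and 1976, 1812 and 1869 in the rapamycin mutants. Both mutant groups lay below all controls in both genes, and the rapamycin mutants were close together for Cenpa. The vehicle mutants had -0.38 ± 0.12 for Ndc80 and -0.42 ± 0.11 for Cenpa, with adjusted p of 0.246 and 0.128. Nuf2 and Spc25, partners of Ndc80 in its complex, had -0.47 ± 0.13 and -0.52 ± 0.15. Mad2l1, the checkpoint protein that holds back Cdc20, had -0.42 ± 0.13 with no overlap. Cenpe, a kinesin of the kinetochore, and Cenpf, a large kinetochore protein, had -0.24 ± 0.13 and -0.47 ± 0.15, and both overlapped, with control 3 the lowest of the controls.

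Among genes of the anaphase-promoting complex pathway, Cdc20, the activator that starts anaphase, was at 2336, 2590.4 and 3613 in the controls, 1816, 1742 and 2218 in the vehicle mutants and 2238, 1505 and 1993 in the rapamycin mutants. Its vehicle mutants were all below the controls at -0.55 ± 0.19 with an adjusted p of 0.283, and control 3 stood far above the other controls. Ube2c, the conjugating enzyme of this ubiquitin ligase, had the largest difference of the 36, -0.69 ± 0.17 with 0.0901. Its means were 2410.6 ± 516 in the controls, 1483 ± 197 in the vehicle mutants and 1711 ± 193 in the rapamycin mutants (SD, n = 3).

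The 4 spindle genes had a median of -0.46. Kif11, the kinesin that pushes spindle poles apart, was at 3092, 3067 and 2915 in the controls, 2475, 1911 and 1843 in the vehicle mutants and 2254, 2186 and 2187 in the rapamycin mutants. Nusap1, which bundles microtubules near chromosomes, was at 1778, 1574 and 1829.9 in the controls, 1370.4, 1079 and 1134 in the vehicle mutants and 1247, 1376 and 1223 in the rapamycin mutants. The controls of Kif11 were close together and far above every mutant library, and mutant vehicle 1 was the highest of its group in both genes. These were among the 3 members with the smallest p in this comparison, at -0.55 ± 0.12 with an adjusted p of 0.0574 and -0.54 ± 0.13 with 0.0762. Tpx2, an activator of Aurka on spindle microtubules, had -0.39 ± 0.12. Hmmr, a microtubule-associated spindle protein also known as a hyaluronan receptor, differed least in this group, at -0.24 ± 0.21, with mutant vehicle 1 at 1182 the highest of all 9 libraries.

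For the 6 genes of midzone and cytokinesis the median was -0.43. Kif23, the kinesin of the centralspindlin complex, was at 2766, 2771 and 2727 in the controls, 2156, 1879.6 and 2057 in the vehicle mutants and 2019.8, 1832 and 1822 in the rapamycin mutants. Prc1, which crosslinks the antiparallel microtubules of the midzone, was at 2641, 2319 and 2505 in the controls, 2202, 1527 and 1663 in the vehicle mutants and 2016, 2009 and 1889 in the rapamycin mutants. Controls of Kif23 differed little and stood above all mutant libraries, and the groups of Prc1 did not overlap with the controls either. The vehicle mutants had -0.44 ± 0.10 for Kif23 with 0.0727 and -0.49 ± 0.14 for Prc1 with 0.152. Racgap1, the partner of Kif23 in centralspindlin, had -0.50 ± 0.12 with 0.0949, and Kif20a, a midzone kinesin, -0.43 ± 0.16. Anln, the furrow scaffold anillin, was at 2823, 2236 and 2128 in the controls, 2476, 1605 and 1581 in the vehicle mutants and 2329, 2172 and 2024 in the rapamycin mutants. Anln overlapped in both comparisons with controls, at -0.37 ± 0.18 for the vehicle mutants. So did Ect2, the exchange factor that activates RhoA at the furrow, at -0.37 ± 0.20, where mutant vehicle 1 lay between controls 1 and 2.

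The 2 genes of mitotic chromosomes were the most abundant members by count. Mki67 was at 17812, 15786 and 14026 in the controls, 14835, 12981 and 12436 in the vehicle mutants and 15471, 12368 and 12868 in the rapamycin mutants. Top2a, the topoisomerase that untangles sister chromatids, was at 13292, 12946 and 12990.4 in the controls, 10854, 8559 and 8359 in the vehicle mutants and 10114, 8837 and 8793 in the rapamycin mutants. The groups of Mki67 overlapped, since mutant vehicle 1 and rapamycin mutant 1 lay above control 3, while those of Top2a did not overlap with the controls. The vehicle mutants had -0.24 ± 0.13 for Mki67 with an adjusted p of 0.635 and -0.51 ± 0.12 for Top2a with 0.0873.

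**Figure D2:**
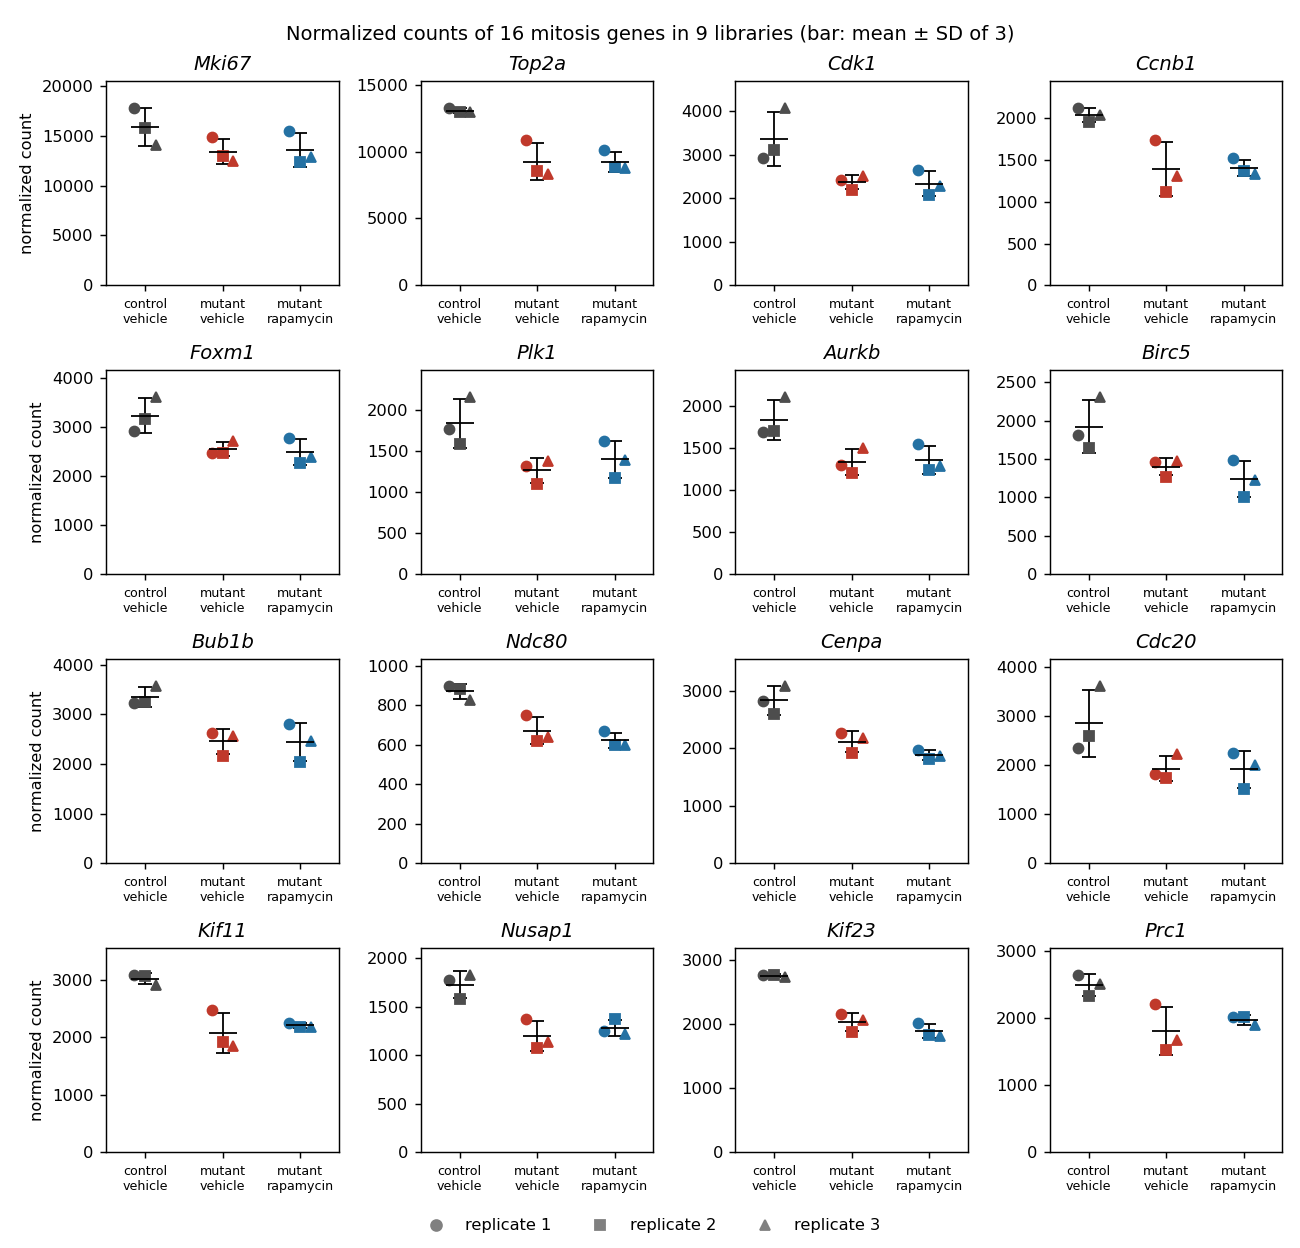
Normalized counts of 16 members in each of the 9 libraries, with the y axis from 0, bars at the group mean ± SD (n = 3) and marker shape for the replicate number. In most panels the 3 controls sit above all 6 mutant libraries, as for Top2a with controls at 12946 to 13292, while Mki67 overlaps.

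The second comparison, rapamycin mutants against vehicle mutants, addressed what the drug did in the mutant. The members lay on both sides of 0: 18 of 36 had a lower and 18 a higher mean with rapamycin, where 51.4% of all genes were lower, and the median log2 fold change was -0.0014 against -0.0084 over all genes. The rapamycin mean was 79.7% to 115% of the vehicle mutant mean, with a median of 99.4%. limma called 0 members in either direction, against 0.3% of all genes, with 0 at an unadjusted p under 0.05 against 11.7% of all genes, and limma-voom called 0. The authors' deposited table has 0 lower, against 0.432% of its genes. No member had all rapamycin libraries on 1 side of all vehicle mutants, which 9% of all genes had below and 9.41% above. Within replicate numbers 1, 2 and 3, which are not known to pair these groups, the members lower with rapamycin numbered 19, 17 and 16 of 36.

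By role, the medians with rapamycin ran from -0.067 in the chromosomal passenger complex to 0.10 in the spindle group, whose 4 genes were all above 0. The largest difference below 0 was Cdca3 at -0.32 ± 0.25, with an adjusted p of 0.688, and the largest above 0 was Anln at 0.23 ± 0.18, with 0.686. Cenpa and Ccnb2, which with Anln had the smallest p among the members, had -0.16 ± 0.11 and -0.23 ± 0.18, with 0.640 and 0.686. The proliferation antigen Mki67 had 0.013 ± 0.13, Top2a 0.0057 ± 0.12 and Cdk1 -0.029 ± 0.15. No member passed the test. The sign of the members' median turned with the setting: it was 0.010 with limma-voom, 0.073 without mutant 1, 0.049 without rapamycin mutant 2, 0.013 without rapamycin mutant 3, -0.058 without mutant 2 and -0.071 without rapamycin mutant 1. Without mutant 1, 4 members had an unadjusted p under 0.05, against 16.9% of all genes, and 0 were called.

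The third comparison, rapamycin mutants against controls, shares its controls with the first and its treated libraries with the second, so it is not independent of them. All 36 members again had a mean below that of the controls, at 54.2% to 95.3% of it with a median of 72.9%, and the median log2 fold change was -0.46, where 50.7% of all genes lay below 0. limma called 2 lower, against 0.941% of all genes, and 30 had an unadjusted p under 0.05, against 7.96%. In 27 members all rapamycin libraries lay below all controls, against 10.8% of all genes. The overlapping ones were Ccnb2, Plk1, Aurka, Ube2c, Cenpe, Hmmr, Anln, Ect2 and Mki67.

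Both calls were of genes whose library values are given above. Kif23 (ENSMUSG00000032254, chr9:61915905-61946774 on the minus strand of GRCm38) fell by 0.54 ± 0.10 on the log2 scale, from 2755 ± 23.7 to 1891 ± 112 normalized counts (SD, n = 3), with an adjusted p of 0.0174 from limma. Cenpa (ENSMUSG00000029177, chr5:30666777-30674830 on the plus strand) fell by 0.58 ± 0.11, from 2831 ± 249.9 to 1886 ± 83.1, with 0.0206. All 3 rapamycin libraries lay below all 3 controls for both. The call of Kif23 was lost without control 2, rapamycin mutant 2 or rapamycin mutant 3, with an adjusted p of up to 0.0942, and that of Cenpa without control 2, control 3 or any rapamycin mutant, with up to 0.0914. With controls 1, 2 and 3 left out in turn, 5, 0 and 1 members were called lower, where the same fits called 2.1%, 0.102% and 0.335% of all genes lower. With vehicle mutants 1, 2 and 3 left out it was 9, 2 and 2 members against 1.23%, 0.458% and 0.768%, and with rapamycin mutants 1, 2 and 3 left out 1, 0 and 0 against 0.244%, 0.219% and 0.304%. The share called thus moved between these fits over all genes as well as in the members. Leaving out control 1 and rapamycin mutant 2 together, the libraries with the most ribosomal RNA reads, gave 0 calls with limma, against 0.802% of all genes, and 22 at an unadjusted p under 0.05, against 8.02%. The authors' deposited table has 14 members lower at an adjusted p under 0.05, against 1.86% of its genes, led by Kif23 at 4.3e-05 and Cenpa at 0.0002.

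Other members came close to the threshold. Racgap1 had -0.51 ± 0.12 with an adjusted p of 0.0512, Top2a -0.50 ± 0.12 with 0.0523, Mad2l1 -0.52 ± 0.13 with 0.0566 and Ndc80 -0.48 ± 0.12 with 0.0622. By role the medians were -0.49 for entry into mitosis, -0.40 for the kinases, -0.49 for the passenger complex, -0.47 for kinetochore and centromere, -0.52 for the anaphase-promoting complex pathway, -0.36 for the spindle, -0.41 for midzone and cytokinesis and -0.36 for mitotic chromosomes. Cdca3 had the largest difference, -0.84 ± 0.25 with 0.0978, and Hmmr the smallest, -0.054 ± 0.21 with 0.930. Hmmr was the only member whose sign turned against the controls in any alternative run, at 0.089 without control 1 and 0.061 without control 1 and rapamycin mutant 2. The replicate numbers are not known to pair these groups. Within each number 35 of 36 members were lower, with medians of -0.32, -0.47 and -0.57. The exception was Ccnb2 in number 1 and Hmmr in numbers 2 and 3.

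**Figure D3:**
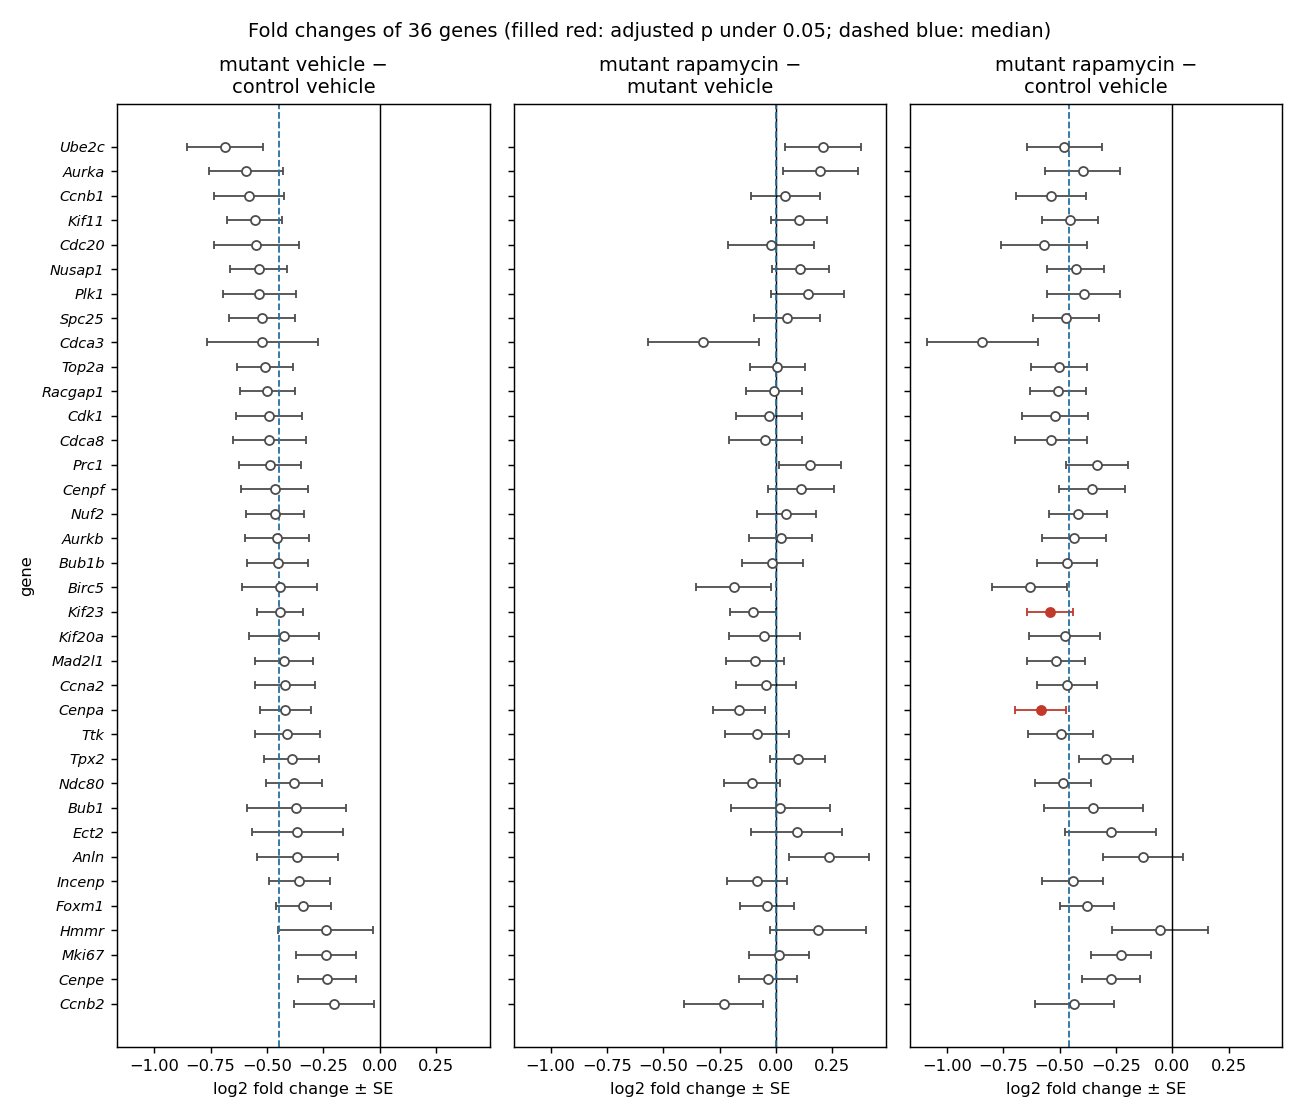
The log2 fold change ± SE of each of the 36 members in the 3 comparisons, from limma over all 9 libraries, with dashed lines at the members' medians of -0.45, -0.0014 and -0.46. The members lie left of 0 in both comparisons with controls and on both sides of 0 for rapamycin against vehicle, and the filled red points are the called genes Kif23 and Cenpa.

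Across libraries the controls mostly stood above both mutant groups, while vehicle and rapamycin mutants interleaved. The highest library was a control for 35 of the 36, control 3 for 19, control 1 for 13 and control 2 for 3, and mutant vehicle 1 for Hmmr. The lowest was rapamycin mutant 2 for 15, mutant vehicle 3 for 11, mutant vehicle 2 for 9 and rapamycin mutant 3 for 1. The geometric mean over the 36 genes was 2412, 2300 and 2528 in the controls, 1995, 1620 and 1737 in the vehicle mutants and 1940, 1674 and 1744 in the rapamycin mutants. Replicate 1 was thus the highest of its group in both mutant groups, and no mutant library reached any control.

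Which library was high within a group varied with exon length. The correlation of a member's deviation from its group mean with log2 exon length over the 36 genes was 0.52, 0.60 and -0.65 in controls 1 to 3, 0.43, 0.26 and -0.58 in vehicle mutants 1 to 3, and -0.41, 0.50 and -0.42 in rapamycin mutants 1 to 3. These are descriptions over genes of the same libraries, and the 3 deviations of a group sum to 0. Long members were thus relatively high in controls 1 and 2 and short ones in control 3, which can be seen in Cdc20 and Cdca3 against Cenpe and Cenpf. Over 13900 genes with a mean count of at least 50 the same correlations had the same signs and were smaller in size, from -0.41 in control 3 to 0.31 in control 2. The ratio of the 9 shortest to the 9 longest members, as geometric means, was 0.411, 0.426 and 0.611 in the controls, 0.382, 0.435 and 0.538 in the vehicle mutants and 0.466, 0.386 and 0.440 in the rapamycin mutants. Split by length, the median log2 fold change of vehicle mutants against controls was -0.52 in the 9 shortest and -0.44 in the 9 longest members. With the length trend removed from each library, chosen after seeing the data, 4 members were called lower in vehicle mutants, against 0.448% of all genes, and 8 in rapamycin mutants against controls, against 1.31%.

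**Figure D4:**
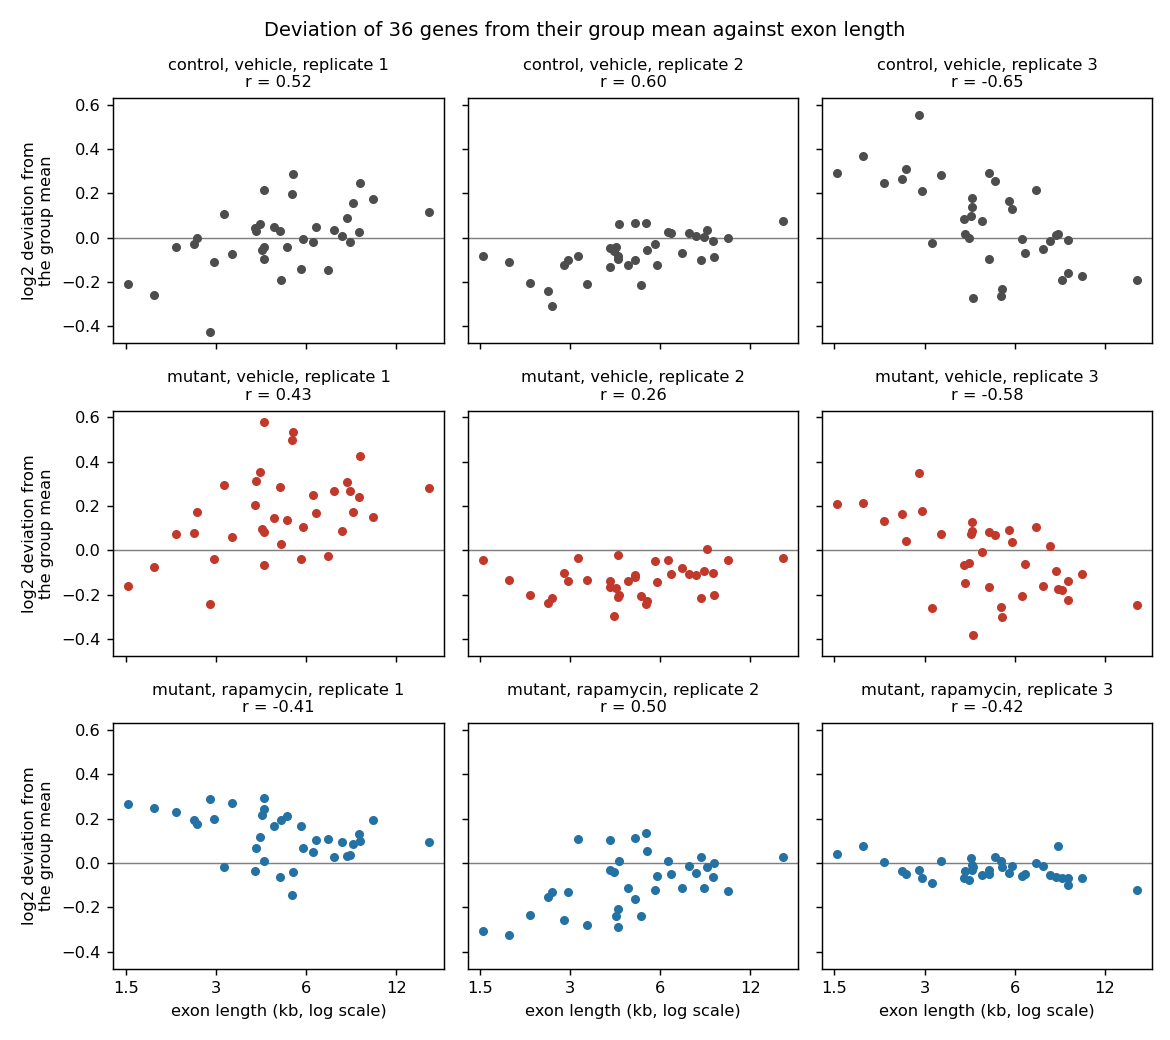
Deviation of each of the 36 members from its group mean (log2, y axis) against exon length (kb, log axis), 1 panel per library with the correlation in its title. The cloud slopes up in controls 1 and 2 and down in control 3, with correlations of 0.52, 0.60 and -0.65.

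A list of 76 further G2 and mitosis genes that are not among the 36 was read beside them. It comes from the same libraries and phase of the cell cycle and was chosen with earlier results of these data known. It is therefore not independent of the members. In vehicle mutants 75 of 76 were below the controls, with a median of -0.38, and 2 were called lower, against 0.366% of all genes. Pbk, a mitotic kinase, fell by 0.66 ± 0.13 (adjusted p 0.0398), and Kif18b, a kinesin of spindle microtubule ends, by 0.61 ± 0.13 (0.0481). The call of Pbk held only without control 1 or mutant 1 when 1 library was left out, and reached 0.198, while that of Kif18b held in none of the 9 such fits, with up to 0.260. limma-voom called 1 of the list and the replicate block 5, and the blocks added after seeing the data 24 and 41. With rapamycin against vehicle, 39 of 76 were below 0 with a median of -0.0096, and limma and limma-voom called 0. At an unadjusted p under 0.05 in limma 2 were lower, against 5.52% of all genes. The smallest p there was that of Cenph, a kinetochore gene, at -0.48 ± 0.14 with 0.213. Against controls, all 76 were below 0 in the rapamycin mutants, with a median of -0.39. Of these, 8 were called lower, against 0.941% of all genes. Among them were Pbk at -0.77 ± 0.13 with 0.0121, Cenph at -0.82 ± 0.14 with 0.0122, the spindle gene Dlgap5 at -0.52 ± 0.11 with 0.0325 and the kinetochore gene Ska1 at -0.66 ± 0.15 with 0.0411, the 4 with the smallest p. The count of 8 became 16, 0 and 3 when controls 1, 2 and 3 were left out in turn, 15, 2 and 5 for vehicle mutants 1, 2 and 3, and 2, 2 and 1 for rapamycin mutants 1, 2 and 3, in the fits whose shares over all genes are given above. The call of Pbk was lost without control 2 or rapamycin mutant 1, and that of Cenph without either of these or rapamycin mutant 3. The call of Dlgap5 held only without mutant 1, mutant 3 or rapamycin mutant 1, and that of Ska1 only without mutant 1 or mutant 3. limma-voom called 4 of this list.

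Genes of DNA replication and S phase, which act before mitosis, were described in the same way. Of 44 such genes, all 44 were below the controls in vehicle mutants with a median of -0.29, and limma and limma-voom called 0. At an unadjusted p under 0.05 in limma 10 were lower, against 4.24% of all genes. The smallest p was that of Rfc4, a subunit of the clamp loader, at -0.47 ± 0.15 with 0.221. The block in the 6 libraries alone called 7, the other blocks 0. With rapamycin against vehicle 42 of 44 were below 0, with a median of -0.22 and 0 calls by limma and limma-voom. Here 10 were lower at an unadjusted p under 0.05 in limma, against 5.52% of all genes. Rrm2, a subunit of ribonucleotide reductase, had -0.47 ± 0.15 with 0.231. Against controls the rapamycin mutants had all 44 below 0 with a median of -0.52 and 7 called lower, against 0.941% of all genes. Among the 7 were Rrm2 at -0.82 ± 0.15 with 0.0129 and the primase subunit Prim1 at -0.69 ± 0.12 with 0.0134. Rfc4 at -0.67 ± 0.15 with 0.0365 and the replication factor Cdc45 at -0.65 ± 0.15 with 0.0401 were also called. limma-voom called 6. Leaving out controls 1, 2 and 3 in turn gave 22, 0 and 2 called S phase genes, leaving out vehicle mutants 1, 2 and 3 gave 7, 2 and 3, and leaving out rapamycin mutants 1, 2 and 3 gave 3, 0 and 1, again in the fits whose shares over all genes are given above. The call of Rrm2 was lost without control 2 or rapamycin mutant 2, and that of Prim1 without these or rapamycin mutant 3. Rfc4 held only without control 1, mutant 1 or mutant 3, and Cdc45 only without control 1 or mutant 1. Whether the S phase genes and the 36 members differ in their response to rapamycin was not tested.

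The regulators of these genes were described as well. Of 22 genes of DREAM, MuvB, B-Myb, E2F and the pocket proteins, 18 were below the controls in vehicle mutants, with a median of -0.10. There were 0 calls by limma and limma-voom, and 1 was lower at an unadjusted p under 0.05 in limma, against 4.24% of all genes. E2f7, an E2F repressor, had the smallest p, at -0.41 ± 0.15 with 0.337. The block in the 6 libraries alone called 2 of this list, the other blocks 0. With rapamycin against vehicle the median was -0.094 and 0 were called by limma and limma-voom. Only E2f8 was lower at an unadjusted p under 0.05 in limma, against 5.52% of all genes, at -0.42 ± 0.13 with an adjusted p of 0.253. Against controls 18 were below 0 in the rapamycin mutants with a median of -0.22, and 1 was called lower, against 0.941% of all genes. It was E2f8, another E2F repressor, at -0.64 ± 0.13 with 0.0301. That call held in 3 of the 9 fits that left out 1 library, those without control 1, mutant 1 or mutant 3, and reached 0.151. The 15 genes that make up the core subunits of the anaphase-promoting complex and its other activator Fzr1 had medians of -0.074, 0.0087 and -0.097 in the 3 comparisons. limma and limma-voom called 0 of them. In each comparison 1 was lower at an unadjusted p under 0.05 in limma, against 4.24%, 5.52% and 7.96% of all genes in turn. The smallest p was in Fzr1 at -0.40 ± 0.16, Anapc15 at -0.49 ± 0.20 and Anapc15 at -0.56 ± 0.20 in turn. The blocks added after seeing the data each called 1 of them lower in vehicle mutants.

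Among 15 tested of 16 cyclins, kinases and inhibitors of G1, Cdkn1a, the p53-induced inhibitor of cyclin-dependent kinases, was higher in both mutant groups than in controls. It was at 485, 484 and 598 in the controls, 888, 961 and 1151 in the vehicle mutants and 876, 1321 and 1057 in the rapamycin mutants, and neither mutant group overlapped the controls. It rose by 0.93 ± 0.17 in vehicle mutants (adjusted p 0.0242), a call lost without control 1, control 2, mutant 2, mutant 3 or rapamycin mutant 3, with up to 0.125. It was also lost with only the 6 libraries compared, at 0.0535, and in limma without trend and robust moderation, at 0.0748. In rapamycin mutants it rose by 1.04 ± 0.17 (0.0102), lost without control 2 at 0.0626 and without control 1 and rapamycin mutant 2 together at 0.0536. Ccnd1, a D-type cyclin that also stands in the list of committed nephron markers, fell in rapamycin mutants against controls, at -0.69 ± 0.16 with 0.0411, a call that held in 2 of 9 fits without 1 library (those without control 1 or mutant 1) and reached 0.181. With rapamycin against vehicle limma and limma-voom called 0 of the G1 genes. At an unadjusted p under 0.05 in limma 3 were higher and 1 lower, against 6.19% and 5.52% of all genes. Ccnd3, another D-type cyclin, had the smallest p, at 0.59 ± 0.15 with an adjusted p of 0.147. The medians of the list were -0.11, 0.00042 and -0.13 in the 3 comparisons.

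**Figure D5:**
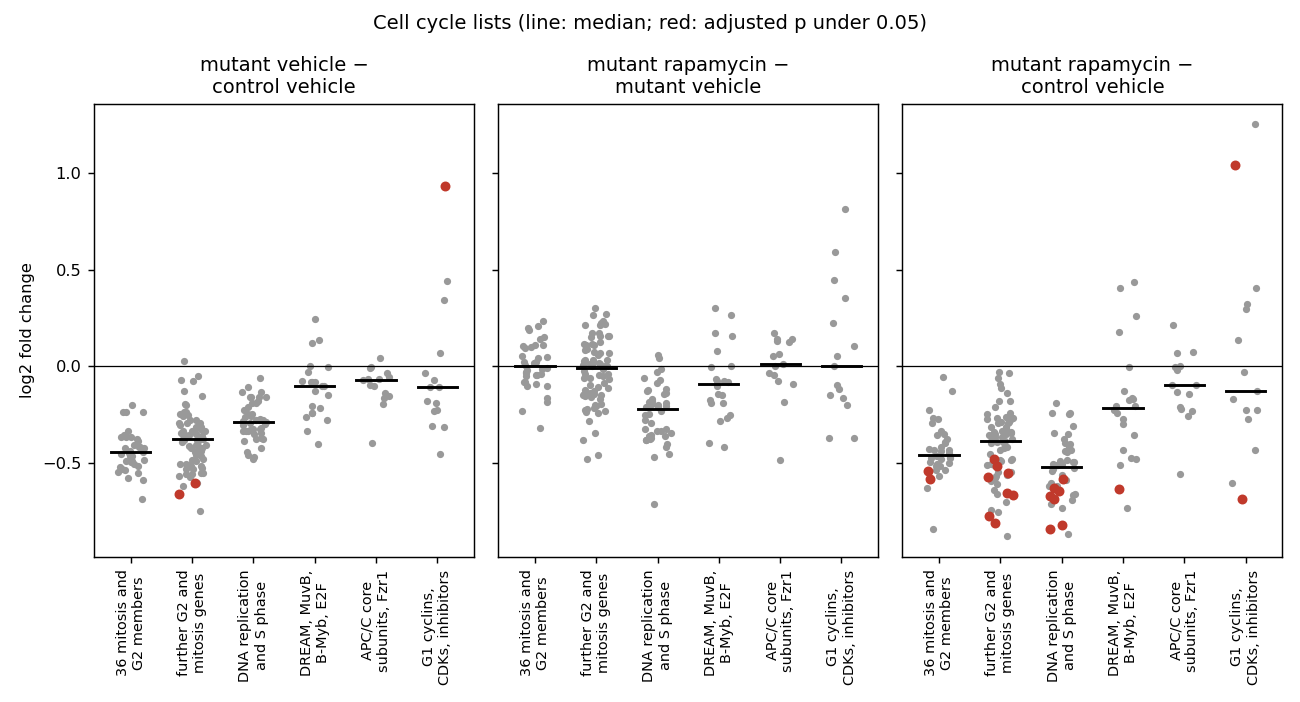
The log2 fold change of every tested gene in the 36 members and 5 further cell cycle lists, 1 panel per comparison, with a line at each list's median and called genes in red. The S phase list has medians of -0.29, -0.22 and -0.52 across the 3 comparisons, the 36 members -0.45, -0.0014 and -0.46.

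Markers of several cell types differed between the groups as well, and their part in the results above was not tested. Over all genes, limma called 1.05% higher and 0.366% lower in vehicle mutants against controls. It called 0.244% higher and 0.056% lower with rapamycin against vehicle, and 2.3% higher and 0.941% lower in rapamycin mutants against controls. Many of the marker calls were lost in other fits, as given in the last section. Summed normalized counts of 12 proximal tubule markers were 20771 to 26277 in the controls, 25120 to 28115 in the vehicle mutants and 32271 to 43599 in the rapamycin mutants, with Lrp2, the endocytic receptor megalin, the most abundant. Slc5a12 was called higher in vehicle mutants, and Lrp2 and Slc22a6 in rapamycin mutants against controls. The 12 markers did not all rise. Against controls 5 were below 0 in vehicle mutants, down to a log2 fold change of -1.27, and 3 in rapamycin mutants, down to -0.39. limma called 0 of them lower. The 11 nephron progenitor markers summed to 21570 to 23988 in the controls, 27598 to 30757 in the vehicle mutants and 29138 to 32554 in the rapamycin mutants. Both sums were thus higher in all rapamycin mutants than in any control. Six2, Osr1, Eya1 and Crym were called higher and Meox2 lower in both mutant groups against controls, and Tmem100 lower in rapamycin mutants. As no control carried Cre, loss of Tsc1 and the presence of Six2 Cre cannot be told apart for these genes, Six2 included. Itga8 was the most abundant of this list. The 9 markers of committed nephron cells ran the other way, from 46761 to 65572 in the controls to 41493 to 47839 in the vehicle mutants and 29337 to 39752 in the rapamycin mutants, with Ccnd1 the most abundant. Lhx1, Pax8, Fgf8, Ccnd1 and Dll1 were called lower and Bmper higher in rapamycin mutants against controls. Ureteric bud and collecting duct markers (12) were at 8688 to 10788, 6997 to 8019 and 9778 to 10613 in the same order of groups, and stromal markers (11) at 142634 to 158572, 133137 to 151192 and 199053 to 251657. Vehicle mutants were thus lowest for the ureteric list, and rapamycin mutants highest for stroma. Wnt9b, Gata3, Aqp2, Aqp3 and Elf5 were called lower in vehicle mutants against controls, Wnt11, Wnt9b, Aqp2, Aqp3 and Elf5 higher with rapamycin than with vehicle, and Wnt11 higher in rapamycin mutants against controls, with Etv5 the most abundant of the list. Of the stromal genes, Col3a1, the most abundant, with Col1a1 and Col1a2 was called higher in rapamycin mutants against controls, and Col1a1 also against vehicle mutants. Endothelial markers (9) were at 21393 to 24187, 19864 to 25965 and 25392 to 35064, with Cdh5 the most abundant, and Kdr was called higher and Cldn5 lower in rapamycin mutants against controls. Leukocyte markers (9) were at 11448 to 16620, 11965 to 26806 and 11908 to 16118, and erythroid markers (9) at 1061 to 5004, 975 to 1912 and 1550 to 3472. The leukocyte and erythroid sums, led by Csf1r and Hba-a1, overlapped between all groups, and 1 erythroid gene was at 0 in a control. For leukocytes, vehicle mutant 1 at 11965 lay within the other groups, while mutants 2 and 3 stood above them at 26806 and 22883.5. All 9 leukocyte genes were above 0 in vehicle mutants against controls, with a median of 0.49. All 9 were below 0 with rapamycin against vehicle, with a median of -0.55, and limma called 0 in both comparisons.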

How the data were processed

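Messenger RNA of 9 libraries, 3 in each of 3 groups, was measured by stranded sequencing. The submitters' processing notes name the GRCm38 build, DESeq2 1.22.1, HTSeq 0.6.0, TopHat2 2.1.1 and cutadapt 1.18. The authors deposited raw counts and normalized counts per gene, together with log2 fold changes and p-values of their own comparisons. In each library, raw over normalized counts gave the same size factor for all genes (0.874 to 1.19 across libraries). The 24539 genes with a normalized count had a summed raw count of 10 or more. Of the raw counts, 6252 genes carry a mark in place of a number. The normalized counts were tested: log2(value + 1), a mean of at least 5, limma 3.58.1 in R 4.3.3 with trend and robust moderation (statmod 1.5.0), all 9 libraries in 1 fit, and Benjamini-Hochberg adjusted p under 0.05 over 19656 genes. Exon lengths are unions of GENCODE M21 exons, which share 54809 gene IDs with the table.

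The 36 genes and all lists were chosen with earlier results of these data known. Library values are given for members chosen for a textbook role, for called members and, in a comparison with 0 called, for the 3 with the smallest p. Of other lists, up to 4 called genes or the gene with the smallest p are named, and of marker lists the most abundant and the called genes. The replicate numbers come from the sample titles, which do not say what they mark. Over 13906 genes with a mean of at least 50, the deviations from group means of same-numbered control and vehicle mutant libraries correlated at 0.615, 0.241 and 0.636. Unlike-numbered libraries of these groups gave -0.619 to 0.011. Same-numbered rapamycin and vehicle mutants gave -0.232, -0.042 and 0.058, and rapamycin mutants and controls -0.260, 0.257 and 0.168. Unlike-numbered libraries also reached 0.423 (control 3 and rapamycin mutant 1) and 0.363 (control 1 and rapamycin mutant 2). Same-numbered control and vehicle mutant libraries thus deviated together. Whether the numbers mark pairs, or libraries that share a technical trend such as that with exon length, was not tested. The test was checked on simulated counts with independent libraries, the same spread for every gene and changes larger than those of any member. That check does not cover smaller changes, libraries that deviate together or a trend with exon length. The depth limits the precision of low genes, and no pair of libraries within a group agreed within counting noise. Alternatives were other scalings, pseudocounts, filters, moderation, blocks, limma-voom and leaving out libraries.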

Additional observations from a re-analysis of the deposited data

How the results depend on the processing

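The direction of the members' median against controls held under every alternative run, from -0.53 (without mutant 1) to -0.38 (without mutant 2) for vehicle mutants. The count of members called did not hold. For vehicle mutants against controls the 0 calls became 5 with the replicate block (0.677% of all genes called lower), 19 with the replicate block in the control and vehicle mutant libraries (1.56%), 30 with the replicate block in only those 6 libraries (3.04%), and 4 with the exon length trend removed (0.448%), and ranged from 0 to 9 without 1 library. The block in part of the libraries and the length trend were chosen after seeing the data. For rapamycin mutants against controls the 2 calls became 5 with a mean of at least 20 (1.3% of all genes called lower in that fit), 4 with only the 6 libraries compared (0.545%), 12 with the replicate block (1.92%), 0 with the block in the 6 libraries (0.601%), 0 in limma without trend and robust moderation (0.585%), 0 without control 1 and rapamycin mutant 2 (0.802%), and 8 with the length trend removed (1.31%), and ranged from 0 to 9 without 1 library. limma-voom gave 2 (0.824%). In the limma fits with 0 calls, the members lower at an unadjusted p under 0.05 were 31 with the block in the 6 libraries (7.21% of all genes), 24 without trend and robust moderation (7.81%) and 22 without the pair of libraries (8.02%). Rapamycin against vehicle stayed at 0 calls in all of these fits. Hmmr turned to 0.061 and 0.089 against controls in rapamycin mutants, without control 1 and rapamycin mutant 2 and without control 1, within a range of -0.17 to 0.089 when 1 library was left out. The cause of these changes was not tested. Same-numbered libraries of the rapamycin mutants and either other group did not deviate together in every replicate number, so their blocks are given only here.

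Over all genes, 279 were called in vehicle mutants against controls, of which 74.2% were higher. With only the 6 libraries it was 99, with the replicate block 405 (67.2% higher), with the block in the control and vehicle mutant libraries 867 (64.6% higher), with the block in the 6 libraries 1398 (57.1% higher), and 81 to 336 without 1 library. For rapamycin against vehicle the 59 calls became 206 with the replicate block, 7 with it in the 6 libraries, 24 without trend and robust moderation, 22 without control 1 and rapamycin mutant 2, and 0 to 200 without 1 library. For rapamycin mutants against controls the 637 calls became 1090 with the replicate block, 418 with it in the 6 libraries, 398 without trend and robust moderation, and 175 to 1131 without 1 library. Besides Cdkn1a, named cell cycle genes lost their limma call against controls in 1 or more of the fits with no filter, with only the 6 libraries, with the block in those 6, without trend and robust moderation, or without control 1 and rapamycin mutant 2: Pbk and Kif18b in vehicle mutants (adjusted p of the lost calls from 0.0545 to 0.132), and Kif23, Cenpa, Dlgap5, Ska1, Prim1, Rfc4, Cdc45, E2f8 and Ccnd1 in rapamycin mutants (from 0.0502 to 0.16). limma-voom also lost Kif18b, at 0.0547. Marker genes lost calls in 1 or more of those fits, in limma-voom or with the length trend removed. In vehicle mutants against controls these were Slc5a12, Gata3 and Elf5, with an adjusted p of up to 0.128. With rapamycin against vehicle they were Aqp3, Wnt9b, Wnt11 and Col1a1, with up to 0.128. In rapamycin mutants against controls they were Lrp2, Slc22a6, Wnt11, Col1a1, Col1a2, Col3a1, Kdr and Cldn5, with up to 0.192. Trimmed-mean scaling moved the median of all genes by less than 0.1. DESeq2 and edgeR were planned and not run, and the raw counts of the tested genes were used in limma-voom only.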
